A study of Mus musculus with 4 samples.

Results

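The genes described here encode the chains of collagens and laminins in the retina of mouse embryos. A gene was included when its symbol in the count table began with Col, digits, the letter a and a digit, or with Lama, Lamb or Lamc and a digit. This gave 51 of the 18471 genes in the table, 41 collagen and 10 laminin genes. The study measured RNA in retinas at embryonic day 19 (E19) and compared 2 libraries labelled wild-type with 2 labelled Foxn3KO (genotype label Foxn3-/-). The mutant embryos lacked exon 3 of Foxn3, which encodes a forkhead transcription factor, and carried the allele C57BL/6NJ-Foxn3em1(IMPC)Bay/Mmnc. Each library came from an individual embryo, the mutant group represents a single allele, and no treatment is named for either group.

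Collagens are trimers of chains wound around each other, and different families build different structures. Fibrillar collagens form the fibrils of connective tissue, cartilage and the vitreous. Type IV collagen forms a sheet-like network that, with laminin trimers, nidogen and perlecan, makes up basement membranes. In the eye such sheets include the inner limiting membrane between retina and vitreous, the walls of the hyaloid and retinal vessels and the lens capsule.

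The libraries held 22543531 to 29360129 counts, so 3 counts corresponded to 0.103 to 0.134 CPM (counts scaled to the TMM-adjusted library size, as edgeR computes CPM). Foxn3 itself had 2421 and 2712 counts in the wild-type-labelled libraries and 4181 and 3219 in the Foxn3KO-labelled ones. Counts over the whole gene do not resolve exon 3, so they cannot check the labels, and every direction below rests on the labels. Wild-type replicate 1 stood apart from the other libraries in its sex-linked transcripts, with 83073 Xist counts and 0 Ddx3y counts against 9 to 19 and 1780 to 2317. It also had the fewest lens transcripts, as given below. The neural retina list of 10 markers, which includes Pax6 and Otx2, summed to 2935 to 3046 CPM in all 4 libraries, so the labelled tissue was present in each.

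Per kilobase of gene length, the members differed widely in abundance. On the scale of the deposited FPKM, which divides by depth and gene length, 9 of the 51 genes had a mean over the libraries of at least 10, 12 lay between 1 and 10, and 30 were under 1. The highest level was that of Col9a1, a chain of the fibril-associated type IX collagen, with 48.1 and 49.9 FPKM in the wild-type-labelled libraries and 47.7 and 47.4 in the Foxn3KO-labelled ones. The next was Col2a1, the chain of the main fibrillar collagen of vitreous and cartilage, with 37.0, 38.8, 33.6 and 32.3 FPKM in the same order. Together these vitreous-type collagens made up 37.4% and 37.2% of the summed FPKM of all members in the wild-type-labelled libraries and 34.5% and 34.0% in the Foxn3KO-labelled ones. In contrast, Col1a1, Col1a2 and Col3a1, the chains of the fibrillar collagens of loose connective tissue, had mean levels of 0.534, 0.415 and 0.0578 FPKM.

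Of the 51 members, 50 passed the filter on low counts and were tested. Col6a6, with 7 to 13 counts per library, did not pass. Col6a3 and Col3a1 passed only through the Foxn3KO-labelled libraries, in which they were higher. An adjusted p under 0.05 (edgeR quasi-likelihood with Benjamini-Hochberg adjustment over all genes, used for each adjusted p below) was reached by 18 members, with 9 genes higher and 9 lower in Foxn3KO. This is 36% of those tested, beside 21.9% of all 17300 genes tested (12.3% higher and 9.66% lower). The median log2 fold change was 0.14 over the members (0.069 without Foxn3KO replicate 1 and 0.091 without wild-type replicate 1) and -0.00470 over all tested genes. In 36 of the 50 members (72%) the CPM values of both groups did not overlap, against 60.4% of all tested genes. Bulk RNA cannot tell fewer cells of a type from less RNA per cell, here or in any result that follows.

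**Figure D1:**
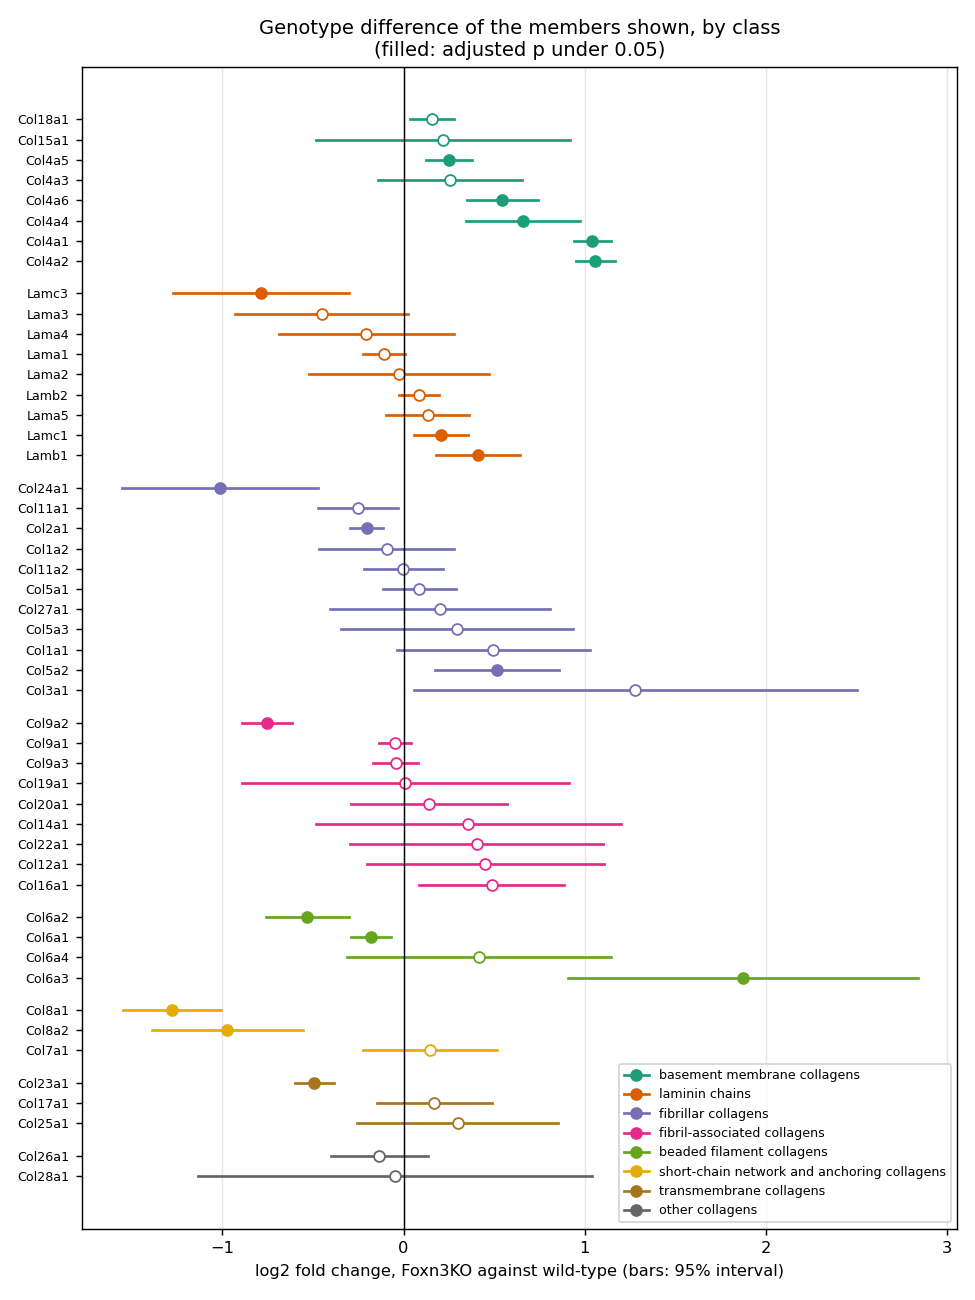
Log2 fold change (horizontal axis, Foxn3KO against wild-type) of the tested members but 1, grouped by structural class on the vertical axis. Bars are 95% intervals and filled points have an adjusted p under 0.05; among the basement membrane collagens all 8 points lie to the right of 0, and Col8a1 is the lowest point of all at -1.28.

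The members were separated into basement membrane components and the remaining collagens. The basement membrane class held 18 genes: the 6 chains of type IV collagen, the basement membrane-associated collagens Col15a1 and Col18a1, and 10 laminin chains. All 18 were tested, 7 rose and 1 fell (44.4% called, beside 21.9% of all genes), and their median log2 fold change was 0.18 (0.12 without wild-type replicate 1). The fibrillar class held 11 genes, of which 1 rose and 2 fell, with a median of 0.09. The 27.3% called in the fibrillar class is near the 21.9% of all genes. Summed over the class, basement membrane members had 445 and 466 CPM in the wild-type-labelled libraries and 620 and 610 CPM in the Foxn3KO-labelled ones. Fibrillar collagens summed to 415 and 426 CPM against 384 and 376 CPM. The lower fibrillar sum came from Col2a1 alone: the other 10 fibrillar genes summed to 70.8 and 66.8 CPM in the wild-type-labelled libraries and 71.8 and 76.6 CPM in the Foxn3KO-labelled ones.

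Most of the rise came from Col4a1 and Col4a2, whose chains assemble into the type IV collagen found in nearly every basement membrane. These genes lie head to head on chromosome 8 of the mouse, and their start regions overlap. The promoter windows of both are shown because the 2 genes rose by nearly the same factor. Sequences are from RefSeq (build GRCm38.p6), run from 250 bases before to 50 bases after the annotated start, and are written 5′ to 3′ on the strand of each gene. Capitals mark the 78 bases (chr8:11312777-11312854) that both windows hold, on opposite strands.
Col4a1 (chr8:11312777-11313076, minus strand): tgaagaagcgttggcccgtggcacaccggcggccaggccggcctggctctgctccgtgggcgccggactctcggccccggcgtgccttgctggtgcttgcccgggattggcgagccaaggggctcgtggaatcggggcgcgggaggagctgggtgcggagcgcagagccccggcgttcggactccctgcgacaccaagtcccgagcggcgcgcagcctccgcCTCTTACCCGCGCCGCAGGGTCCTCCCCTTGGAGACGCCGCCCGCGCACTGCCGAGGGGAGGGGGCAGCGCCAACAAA
Col4a2 (chr8:11312555-11312854, plus strand): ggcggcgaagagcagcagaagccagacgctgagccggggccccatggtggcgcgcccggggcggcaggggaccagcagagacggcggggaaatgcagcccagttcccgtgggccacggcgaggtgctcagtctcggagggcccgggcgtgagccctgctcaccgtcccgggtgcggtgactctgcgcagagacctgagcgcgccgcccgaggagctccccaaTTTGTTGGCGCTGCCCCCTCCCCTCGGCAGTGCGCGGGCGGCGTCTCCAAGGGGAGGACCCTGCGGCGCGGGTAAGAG

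The windows were rich in G and C, at 74.0% for Col4a1 and 73.7% for Col4a2, against a median of 52.7% over all promoter windows of the table. They held 37 and 33 CG dinucleotides, against a median of 7. Neither window contained the forkhead motif GTAAACA on either strand, which 3.65% of the 32851 windows of this length hold. The shorter forkhead-type motif GACGC was present at 1 place in the Col4a1 window, within the shared bases, and at 2 places in the Col4a2 window, and 27.2% of all windows hold it on either strand. Over the 39 windows available for 36 members, GTAAACA was found in 1 (Col6a1) and GACGC in 11 (28.2%). These are matches of letters only.

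Col4a1 had 64.0 and 65.8 CPM in the wild-type-labelled libraries and 135 and 132 CPM in the Foxn3KO-labelled ones. The means were 64.9 ± 1.25 and 134 ± 1.86 CPM (SD, n = 2 per group), a rise of 2.06-fold (95% interval 1.92 to 2.21, adjusted p = 1.85e-11 by edgeR). Col4a2 had 51.4 and 52.8 CPM against 108 and 109 CPM, a 2.08-fold rise (95% interval 1.93 to 2.24, edgeR adjusted p = 2.69e-11). In both genes each library labelled Foxn3KO was near double either library labelled wild-type. The ratio of Col4a2 to Col4a1 on the FPKM scale was 0.905 and 0.904 in the wild-type-labelled libraries and 0.903 and 0.929 in the Foxn3KO-labelled ones, so the balance of the partner chains did not separate the groups.

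The other type IV chains form networks of more restricted tissue distribution. Col4a3 and Col4a4, which lie next to each other on chromosome 1 and supply chains of the network best known from kidney glomerulus, were scarce. Col4a4 had 4.84 and 4.27 CPM in the wild-type-labelled libraries and 7.21 and 7.14 CPM in the Foxn3KO-labelled ones, a 1.58-fold rise (edgeR adjusted p = 0.00384). Col4a3 had 3.02 and 3.86 CPM against 4.16 and 4.11 CPM, which did not pass the threshold (1.20-fold, 95% interval 0.908 to 1.57, edgeR adjusted p = 0.372). Its log2 fold change of 0.26 dropped to 0.099 when wild-type replicate 1 was left out and was 0.45 when replicate 2 was. The interval of Col4a3 overlaps that of Col4a4 (1.27 to 1.96).

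Col4a5 and Col4a6 are neighbours on the X chromosome and are transcribed away from each other, with promoter windows 842 bases apart. Col4a5 had 39.5 and 41.0 CPM in the wild-type-labelled libraries and 47.0 and 48.8 CPM in the Foxn3KO-labelled ones, a 1.19-fold rise (95% interval 1.09 to 1.30, edgeR adjusted p = 0.00623). Col4a6 had 14.8 and 16.8 CPM against 21.7 and 24.4 CPM, a 1.46-fold rise (95% interval 1.27 to 1.67, edgeR adjusted p = 0.000325). For both, wild-type replicate 1 was the lowest of the 4 libraries. Without that library, which differed in its sex-linked transcripts, the log2 fold changes were 0.22 for Col4a5 and 0.45 for Col4a6 (edgeR adjusted p = 0.00596 and 7.52e-05), beside 0.25 and 0.54 with it. Without Foxn3KO replicate 2, Col4a5 did not pass (edgeR adjusted p = 0.0910).

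Altogether 5 of the 6 type IV chains rose (83.3% called, beside 21.9% of all genes), and the median log2 fold change of the 6 was 0.60. Their summed level was 178 and 185 CPM in the wild-type-labelled libraries and 323 and 326 CPM in the Foxn3KO-labelled ones. The composition shifted with it on the FPKM scale. Col4a1 and Col4a2 made up 34.2% to 34.5% and 30.9% to 31.3% of the summed type IV FPKM in the wild-type-labelled libraries, and 38.9% to 40.0% and 36.1% in the Foxn3KO-labelled ones. Col4a5 made up 23.7% in both wild-type-labelled libraries and 15.5% and 15.9% in the Foxn3KO-labelled ones, and its ratio to Col4a1 went from 0.686 and 0.693 to 0.387 and 0.410.

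**Figure D2:**
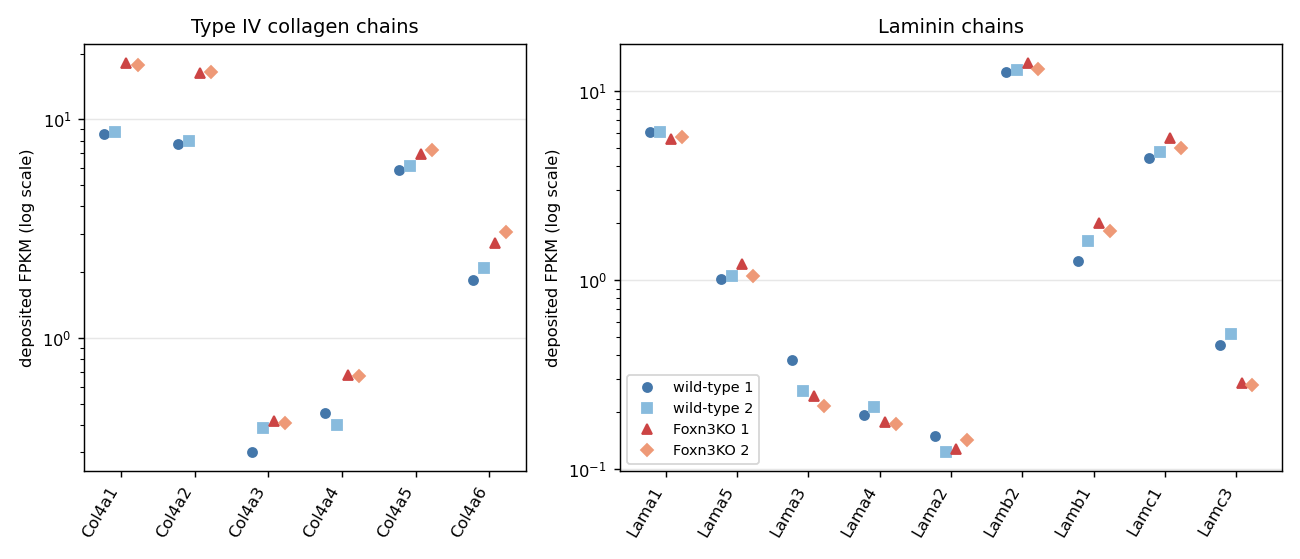
Deposited FPKM on a log axis for the 6 type IV collagen chains (left) and 9 laminin chains (right), 1 point per library. The libraries labelled Foxn3KO stand well above those labelled wild-type for Col4a1 and Col4a2, while the most abundant laminin chain, Lamb2, lies between 12.5 and 13.9 FPKM in all 4.

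Col18a1 and Col15a1 carry sugar chains and sit at the outer face of basement membranes, and the tail of the Col18a1 product is the source of endostatin. Col18a1 had 57.4 and 63.2 CPM in the wild-type-labelled libraries and 66.9 and 67.6 CPM in the Foxn3KO-labelled ones. The groups did not overlap, but the difference of 1.11-fold (95% interval 1.02 to 1.21) missed the threshold after adjustment (edgeR adjusted p = 0.0642). It passed with the replicate number as a block (0.0387) and without wild-type replicate 2 (0.000855). Col15a1 had 26 to 40 counts per library and did not pass (1.16-fold, 95% interval 0.716 to 1.89, edgeR adjusted p = 0.697).

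Laminins are trimers of an alpha, a beta and a gamma chain. On the FPKM scale the most abundant chain of each kind was Lama1, Lamb2 and Lamc1. Lamb2, a beta chain known from retinal and synaptic basement membranes, alone made up 46.8% to 47.6% of the summed laminin FPKM in the 4 libraries. Of the 10 chains, 2 rose, 1 fell and 7 did not pass, and the 30% called is near the 21.9% of all genes. The median log2 fold change was -0.04 (0.093 without wild-type replicate 1). Summed laminin levels overlapped between the groups, at 209 and 217 CPM in the wild-type-labelled libraries and 229 and 215 CPM in the Foxn3KO-labelled ones.

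Among the beta chains, Lamb1 had 12.5 and 16.0 CPM in the wild-type-labelled libraries and 19.8 and 18.1 CPM in the Foxn3KO-labelled ones, a 1.33-fold rise (95% interval 1.13 to 1.56, edgeR adjusted p = 0.0115). The call rested partly on wild-type replicate 1, the lowest library: without it the log2 fold change was 0.25 with an edgeR adjusted p of 0.0645, and without wild-type replicate 2 it was 0.61. It was also lost without Foxn3KO replicate 1 (edgeR adjusted p = 0.0679). Lamb2 had 76.5 and 78.8 CPM against 85.0 and 79.7 CPM, which did not pass (1.06-fold, 95% interval 0.982 to 1.15, edgeR adjusted p = 0.285).

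Among the gamma chains, Lamc1, shared by most laminin trimers, had 36.5 and 39.5 CPM in the wild-type-labelled libraries and 46.4 and 41.2 CPM in the Foxn3KO-labelled ones. Its 1.15-fold rise passed narrowly (edgeR adjusted p = 0.0452). That call was lost in 5 of 12 alternative settings, DESeq2 among them (adjusted p = 0.152), and without Foxn3KO replicate 1 the log2 fold change was 0.12. Lamc3, a gamma chain expressed in the retina and brain, went the other way, with 2.78 and 3.17 CPM against 1.75 and 1.70 CPM. It fell to 0.580 of the level labelled wild-type (95% interval 0.414 to 0.813, edgeR adjusted p = 0.0206), but not in DESeq2 (adjusted p = 0.123). That call was also lost without wild-type replicate 2 (edgeR adjusted p = 0.0781), without Foxn3KO replicate 1 (0.0767) and without Foxn3KO replicate 2 (0.0784).

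None of the 5 alpha chains passed. Lama1, the alpha chain of the early embryonic laminin and of the inner limiting membrane, had 58.7 and 58.9 CPM in the wild-type-labelled libraries and 53.9 and 55.3 CPM in the Foxn3KO-labelled ones. The groups did not overlap, but the ratio was only 0.928 (95% interval 0.857 to 1.01, edgeR adjusted p = 0.185). Lama5, the broadly expressed epithelial and vascular chain, had 11.65 and 11.96 CPM against 13.81 and 12.01 CPM (edgeR adjusted p = 0.426). Lama4, typical of vessels, had 2.34 and 2.58 CPM against 2.16 and 2.10 CPM (edgeR adjusted p = 0.577). Lama2, the muscle and glial chain, had 2.50 and 2.06 CPM against 2.13 and 2.37 CPM (edgeR adjusted p = 0.959). Lama3, an epithelial chain, had 4.07 and 2.80 CPM against 2.64 and 2.32 CPM (edgeR adjusted p = 0.174). Without wild-type replicate 2 it passed, with a log2 fold change of -0.70 (edgeR adjusted p = 0.0236), and without wild-type replicate 1 the value was -0.16 (0.741).

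Among the fibrillar collagens, Col2a1 and Col24a1 fell and Col5a2 rose. Col2a1 had 344 and 359 CPM in the wild-type-labelled libraries and 312 and 299 CPM in the Foxn3KO-labelled ones, a ratio of 0.868 (95% interval 0.816 to 0.924, edgeR adjusted p = 0.00211). The lowest count of Col2a1 in any library was 6701, and the gene made up 79.1% to 84.0% of the summed fibrillar FPKM. The call was lost without Foxn3KO replicate 2 (log2 fold change -0.17, edgeR adjusted p = 0.131).

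Col24a1, a minor fibrillar collagen, had 2.38 and 3.09 CPM in the wild-type-labelled libraries and 1.37 and 1.34 CPM in the Foxn3KO-labelled ones. Its ratio was 0.495 (95% interval 0.340 to 0.721, edgeR adjusted p = 0.00834). DESeq2 narrowly did not call it (adjusted p = 0.0538). The call was also lost without wild-type replicate 2, with a log2 fold change of -0.81. Col5a2, a chain of the type V collagen that starts fibrils, had 18.2 and 10.4 CPM against 19.7 and 21.2 CPM (1.43-fold, edgeR adjusted p = 0.0289). Wild-type replicate 1 lay close to the Foxn3KO-labelled libraries and replicate 2 far below, so the difference depended on the library kept. The log2 fold change was 0.16 without wild-type replicate 2 (edgeR adjusted p = 0.264) and 0.97 without wild-type replicate 1 (4.81e-15), and DESeq2 did not call it (adjusted p = 0.449).

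The partner of Col5a2, Col5a1, had 14.6 and 14.7 CPM in the wild-type-labelled libraries and 14.8 and 16.3 CPM in the Foxn3KO-labelled ones (edgeR adjusted p = 0.566). Col11a2, a chain of the thin fibrils of vitreous and cartilage, followed Col2a1 and Col5a2 in mean FPKM among the fibrillar genes. It had 12.8 and 11.9 CPM against 12.4 and 12.3 CPM (95% interval of the ratio 0.859 to 1.16, edgeR adjusted p = 0.995). Col1a1 had 48 counts in wild-type replicate 1, against 104 in replicate 2 and 105 in each Foxn3KO-labelled library, and Col3a1 had 2 counts there, against 15, 18 and 23 elsewhere. Replicate 1 was thus the lowest library for both genes, and neither passed (edgeR adjusted p = 0.181 and 0.130). Without wild-type replicate 2 the log2 fold changes were 1.07 for Col1a1 and 3.23 for Col3a1. Col3a1 passed the low-count filter only through the libraries in which it was higher, so its values are given as a description only.

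Fibril-associated collagens coat fibrils without forming them. Of the 9, Col9a2 fell and 8 did not pass (11.1% called, beside 21.9% of all genes). Type IX collagen, a trimer of the Col9a1, Col9a2 and Col9a3 chains, is a component of the vitreous. Col9a2 had 43.1 and 42.3 CPM in the wild-type-labelled libraries and 25.1 and 25.6 CPM in the Foxn3KO-labelled ones, a ratio of 0.593 (95% interval 0.538 to 0.653, edgeR adjusted p = 1.14e-07). Its partners showed no such step: Col9a1 had 245 and 254 CPM against 242 and 241 CPM, with a ratio of 0.968 (95% interval 0.910 to 1.03). Col9a3 had 72.0 and 81.4 CPM against 75.5 and 73.4 CPM, with a ratio of 0.970 (95% interval 0.890 to 1.06).

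Set against Col9a1 within each library on the FPKM scale, Col9a2 stood at 0.288 and 0.273 in the wild-type-labelled libraries and at 0.169 and 0.174 in the Foxn3KO-labelled ones. The same ratio for Col9a3 was 0.387 and 0.422 against 0.410 and 0.401, with overlap. Ratios were taken for 13 combinations of chains, and 11 did not overlap between the groups. With 2 libraries per group, the exact permutation test (two-sided) cannot go below p = 0.333, the value for each of these 11 (0.394 after Benjamini-Hochberg adjustment over the 13).

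**Figure D3:**
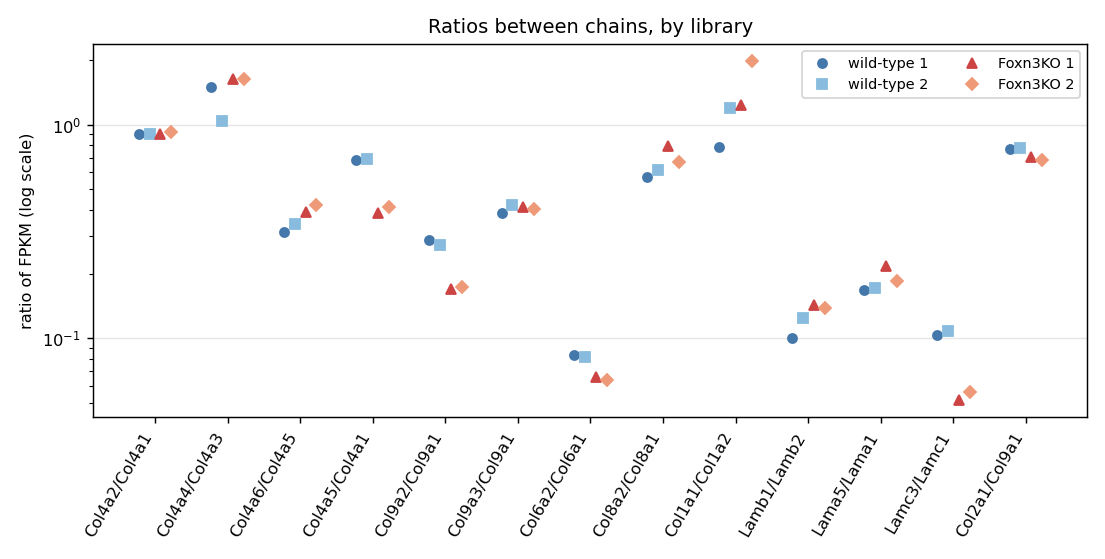
Ratio of the deposited FPKM of 2 chains in each library, on a log axis, for 13 combinations; each point is 1 library. Col4a2 to Col4a1 is level near 0.9 in all 4 libraries, while Col9a2 to Col9a1 and Col4a5 to Col4a1 are lower in both libraries labelled Foxn3KO.

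Type VI collagen forms beaded filaments near cell surfaces, from chains of Col6a1, Col6a2 and a further chain such as Col6a3. On the FPKM scale, Col6a1 was at 16.0 to 18.9 in the 4 libraries, Col6a2 at 1.06 to 1.54 and Col6a3 at 0.0184 to 0.0931. Col6a2 had 12.8 and 12.9 CPM in the wild-type-labelled libraries and 8.86 and 8.93 CPM in the Foxn3KO-labelled ones, a ratio of 0.692 (95% interval 0.591 to 0.811, edgeR adjusted p = 0.00166). Its neighbour on chromosome 10, Col6a1, had 80.3 and 83.0 CPM against 70.4 and 73.9 CPM, a ratio of 0.884 (edgeR adjusted p = 0.0206). The Col6a1 call was lost in DESeq2 (adjusted p = 0.0805), without Foxn3KO replicate 1 (edgeR adjusted p = 0.291) and without Foxn3KO replicate 2 (0.0719). Col6a3 went up from 9 and 6 counts to 30 and 25 counts (log2 fold change 1.87, SE 0.46, edgeR adjusted p = 0.00657). It passed the low-count filter only through the libraries in which it was higher, so it had to differ to be tested, and its p is given as a description only. Without it, 17 members were called, 8 higher and 9 lower.

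Col8a1 had the lowest ratio of all tested members, and its partner chain fell too. Col8a1 and Col8a2 encode the 2 short chains of this collagen, which forms lattices in the basal sheet of the corneal endothelium and occurs in vessel walls. The promoter windows of both are printed because these are the members with the lowest ratios beside Col24a1. The windows again come from RefSeq (GRCm38.p6), and capitals mark a match to GACGC.
Col8a1 (chr16:57754688-57754987, minus strand): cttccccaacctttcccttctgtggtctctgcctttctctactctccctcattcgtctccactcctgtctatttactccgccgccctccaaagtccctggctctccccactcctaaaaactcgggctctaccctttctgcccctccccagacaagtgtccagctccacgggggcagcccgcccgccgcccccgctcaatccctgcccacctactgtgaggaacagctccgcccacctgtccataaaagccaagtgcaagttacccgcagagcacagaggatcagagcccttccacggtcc
Col8a2 (chr4:126286544-126286843, plus strand): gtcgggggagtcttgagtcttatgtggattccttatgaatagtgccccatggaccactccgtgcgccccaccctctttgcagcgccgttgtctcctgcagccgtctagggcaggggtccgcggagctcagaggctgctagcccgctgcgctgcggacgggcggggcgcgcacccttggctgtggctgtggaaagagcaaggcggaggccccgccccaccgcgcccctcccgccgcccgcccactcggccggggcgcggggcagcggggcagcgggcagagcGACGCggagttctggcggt

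Neither of these windows held GTAAACA. Col8a1 had 327 and 436 counts in the wild-type-labelled libraries and 167 and 143 in the Foxn3KO-labelled ones. The means were 14.6 ± 2.02 and 6.06 ± 0.460 CPM (SD, n = 2 per group), a fall to a ratio of 0.413 (95% interval 0.342 to 0.498, adjusted p = 7.19e-07 by edgeR). Col8a2 had 4.31 and 5.63 CPM against 2.61 and 2.46 CPM, a ratio of 0.510 (95% interval 0.382 to 0.681, edgeR adjusted p = 0.00162). In both genes every library labelled Foxn3KO lay below every library labelled wild-type, and wild-type replicate 2 was the highest. Col7a1, the anchoring-fibril collagen of skin and cornea, had 4.48 and 3.79 CPM against 4.84 and 4.24 CPM and did not pass (edgeR adjusted p = 0.610).

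Among the transmembrane collagens, Col23a1 fell. It was the most abundant member of its class, with 16.5 and 17.1 FPKM in the wild-type-labelled libraries and 11.8 and 12.1 FPKM in the Foxn3KO-labelled ones. In CPM it went from 95.1 and 98.5 to 67.8 and 69.9, a ratio of 0.711 (95% interval 0.660 to 0.766, edgeR adjusted p = 1.05e-06). Col17a1, the collagen of epithelial hemidesmosomes, and Col25a1, a collagen of neurons, had edgeR adjusted p-values of 0.469 and 0.467.

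**Figure D4:**
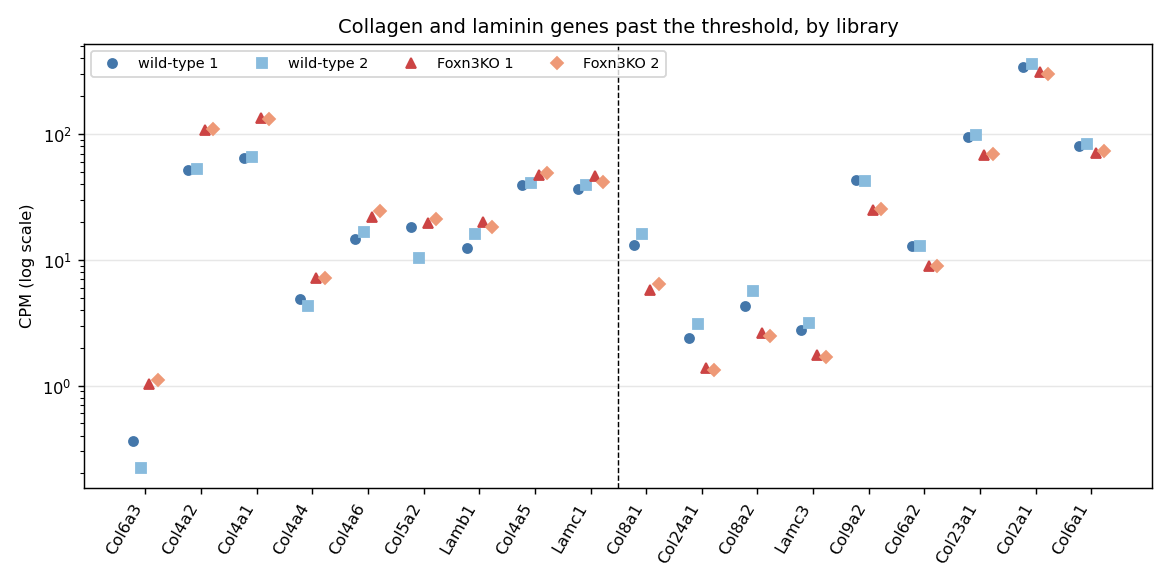
CPM on a log axis of the 18 members past the threshold, 1 point per library; the 9 to the left of the dashed line were higher in the Foxn3KO-labelled libraries and the 9 to the right lower. Both groups are separate for each of the 18 genes, though only narrowly for Lamc1, where wild-type replicate 2 (39.5 CPM) comes close to Foxn3KO replicate 2 (41.2 CPM).

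Of the 18 calls, 9 were made in all 12 alternative settings: Col4a1, Col4a2, Col4a4, Col4a6, Col6a2, Col8a1, Col8a2, Col9a2 and Col23a1. Col6a3 had no value with at least 10 counts in every library or under DESeq2. Without wild-type replicate 1, 16 members were called, 7 higher and 9 lower, beside 24.3% of all genes tested in that fit (13.4% higher and 10.9% lower). Without wild-type replicate 2, 20 members were called, 12 higher and 8 lower, beside 28.6% of all genes (15.6% higher and 13.1% lower), and 15 of the 20 were among the 18. DESeq2 called 12, 6 in each direction, beside 16.0% of all genes with an adjusted p (10.1% higher and 5.92% lower).

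Genes that work with these chains were counted in the same fit. In total 55 were tested, of which 16 rose and 7 fell (41.8% called, beside 21.9% of all genes). The 16 include P4ha3 and Ddr2, which passed the low-count filter only through the Foxn3KO-labelled libraries, in which they were higher. The share is therefore given as a description only. Of the 14 other basement membrane proteins, 5 rose and 2 fell (50% called, beside 21.9% of all genes). Nid1, the linker that joins the laminin and type IV collagen networks, had 5.52 and 4.71 CPM in the wild-type-labelled libraries and 39.0 and 38.7 CPM in the Foxn3KO-labelled ones (log2 fold change 2.93, SE 0.095, edgeR adjusted p = 8.49e-14). Hspg2, which encodes the heparan sulfate proteoglycan perlecan, had 27.7 and 29.6 CPM against 58.9 and 60.6 CPM (log2 fold change 1.06, edgeR adjusted p = 4.76e-10). Sparc, a collagen-binding glycoprotein, had 91.6 and 97.3 CPM against 140 CPM in both (log2 fold change 0.56, edgeR adjusted p = 8.88e-08). For Nid1, Hspg2 and Sparc the Foxn3KO-labelled libraries lay above both wild-type-labelled libraries. The 2 genes that fell were Frem1 and Agrn. Frem1 had 100 and 95.1 CPM against 67.3 and 62.0 CPM (log2 fold change -0.59). Agrn, the most abundant of the list by mean FPKM, had 499 and 517 CPM against 456 and 461 CPM (log2 fold change -0.15).

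Of the 17 genes of collagen folding and modification, 5 rose and 4 fell (52.9% called, beside 21.9% of all genes). P4ha3, which rose from 11 and 10 counts to 32 and 18, passed the low-count filter only through the Foxn3KO-labelled libraries. Its rise, and the share that counts it, are given as a description only. Serpinh1, the collagen chaperone, had 188 and 191 CPM in the wild-type-labelled libraries and 230 and 235 CPM in the Foxn3KO-labelled ones (log2 fold change 0.30, edgeR adjusted p = 5.45e-05). P3h2, a prolyl hydroxylase that acts on type IV collagen, had 1.29 and 1.18 CPM against 3.16 and 4.29 CPM (log2 fold change 1.57, edgeR adjusted p = 0.000168). Plod2, a lysyl hydroxylase linked to collagen crosslinks, had 71.6 and 72.5 CPM against 55.5 and 51.3 CPM (log2 fold change -0.43, edgeR adjusted p = 2.09e-05).

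Of the 9 genes of processing and crosslinking, 2 rose and 1 fell (33.3% called, beside 21.9% of all genes). Loxl1, a lysyl oxidase, had 2.62 and 2.02 CPM in the wild-type-labelled libraries and 5.29 and 6.25 CPM in the Foxn3KO-labelled ones (log2 fold change 1.31, edgeR adjusted p = 8.13e-05). Pcolce, an enhancer of procollagen cleavage, had a log2 fold change of 0.84 and Loxl3, another lysyl oxidase, of -0.44 (edgeR adjusted p = 0.0128 and 0.00863). DESeq2 called neither Pcolce nor Loxl3 (adjusted p = 0.0580 and 0.0559). Of the 15 receptor genes, 4 rose and none fell, a share of 26.7% that is near the 21.9% of all genes. Ddr2, which rose from 5 and 9 counts to 24 and 16, passed the low-count filter only through the Foxn3KO-labelled libraries. Its rise, and the share that counts it, are given as a description only. The collagen receptor kinase Ddr1 had 409 and 438 CPM against 528 and 534 CPM (log2 fold change 0.33, edgeR adjusted p = 1.94e-05). The laminin receptors Dag1 and Itga6 had log2 fold changes of 0.26 and 0.20 (edgeR adjusted p = 0.00163 and 0.0111), the second not called without either Foxn3KO library (0.0867 and 0.108).

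Markers of neighbouring tissues moved with the genotype in part. Of 11 lens markers, 8 were in the table and all 8 rose (100% called, beside 21.9% of all genes). Mip, Cryaa, Crybb3, Cryba1 and Cryba2 were under the low-count cutoff of 0.387 CPM in wild-type replicate 1. For these genes only the Foxn3KO-labelled group reached it in both replicates, so their rise is given as a description only. The 8 markers summed to 4.52 CPM in wild-type replicate 1, 69.8 in wild-type replicate 2, and 244 and 245 CPM in the Foxn3KO-labelled libraries. Lens cells are covered by a capsule rich in type IV collagen, so these values stand beside the rise of Col4a1, Col4a2 and those of their partners that rose. Between the wild-type-labelled libraries, whose lens sums differed by that amount, Col4a1 was 64.0 and 65.8 CPM, Col4a2 51.4 and 52.8 CPM, and Nid1 5.52 and 4.71 CPM. The part of the lens difference in the results on collagens and laminins was not tested.

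Of the 9 pigment epithelium markers in the table, 4 fell and none rose (44.4% called, beside 21.9% of all genes). The sum was 57.7 and 83.3 CPM in the wild-type-labelled libraries against 44.9 and 47.0 CPM. Like Col8a1 and Col8a2, this sum was highest in wild-type replicate 2. Astrocyte markers summed to 41.5 and 38.6 CPM against 25.9 and 27.7 CPM, of which Gfap took 32.0, 28.0, 14.6 and 15.1 CPM. Another astrocyte marker, Aldh1l1, rose from 2.14 and 2.54 CPM to 4.33 and 4.29 CPM (log2 fold change 0.88, edgeR adjusted p = 0.00366). The part of the pigment epithelium and astrocyte differences in the results on collagens and laminins was not tested.

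The sums of the endothelial, pericyte and mesenchyme lists overlapped between the groups or nearly so, but 1 gene made up most of each sum. The 10 endothelial markers summed to 388 and 402 CPM in the wild-type-labelled libraries and 385 and 376 CPM in the Foxn3KO-labelled ones, most of it Kdr, which retinal progenitors also express (359 and 373 against 354 and 347 CPM). Of the 10 endothelial markers, 7 had a positive log2 fold change, and the median was 0.32. Pecam1 and Tek were called within that list (20%, beside 21.9% of all genes). Pecam1 rose from 22 and 27 counts to 52 and 50, and Tek from 5 and 8 to 25 and 19. Cdh5 had 14, 26, 34 and 16 counts in the same order. Tek passed the low-count filter only through the Foxn3KO-labelled libraries, in which it was higher, so its rise is given as a description only. Pecam1 was not called by DESeq2 (adjusted p = 0.0849) and Tek not without wild-type replicate 1 (edgeR adjusted p = 0.0577). Pericyte markers summed to 63.1 and 68.5 CPM against 60.4 and 61.7 CPM, most of it Notch3 (45.9 and 47.8 against 40.8 and 41.3 CPM). Of the 8 tested 1 rose and 2 fell (37.5% called, beside 21.9% of all genes). Des, which fell from 19 and 18 counts to 8 and 5, passed the low-count filter only through the wild-type-labelled libraries. Its fall is given as a description only. Periocular mesenchyme and fibroblast markers summed to 76.0 and 79.8 CPM against 72.6 and 76.4 CPM. Of these 12 markers 7 were in the table and 6 were tested, of which 1 rose (16.7% called, beside 21.9% of all genes) and 2 had a positive log2 fold change. The riser, Ogn (9 and 36 counts against 65 and 53), was under the low-count cutoff of 0.387 CPM in wild-type replicate 1. Its rise is given as a description only. Microglial markers summed to 22.4 and 24.7 CPM against 26.6 and 27.7 CPM, with none of 8 called, cartilage markers to 1.17 and 1.25 CPM against 1.44 and 1.43 CPM, and skeletal muscle markers to 7.23 to 8.89 CPM over all libraries. Of the 4 surface epithelium markers in the table, only Cdh1 was called (25%, beside 21.9% of all genes), with a log2 fold change of 2.23. It went from 1.53 and 2.25 CPM to 7.90 and 10.1 CPM, while the other 3 had log2 fold changes from -0.23 to 0.095. The list summed to 18.8 CPM in both wild-type-labelled libraries against 24.8 and 26.6 CPM. Whether these smaller differences take part in any result on the members was not tested.

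**Figure D5:**
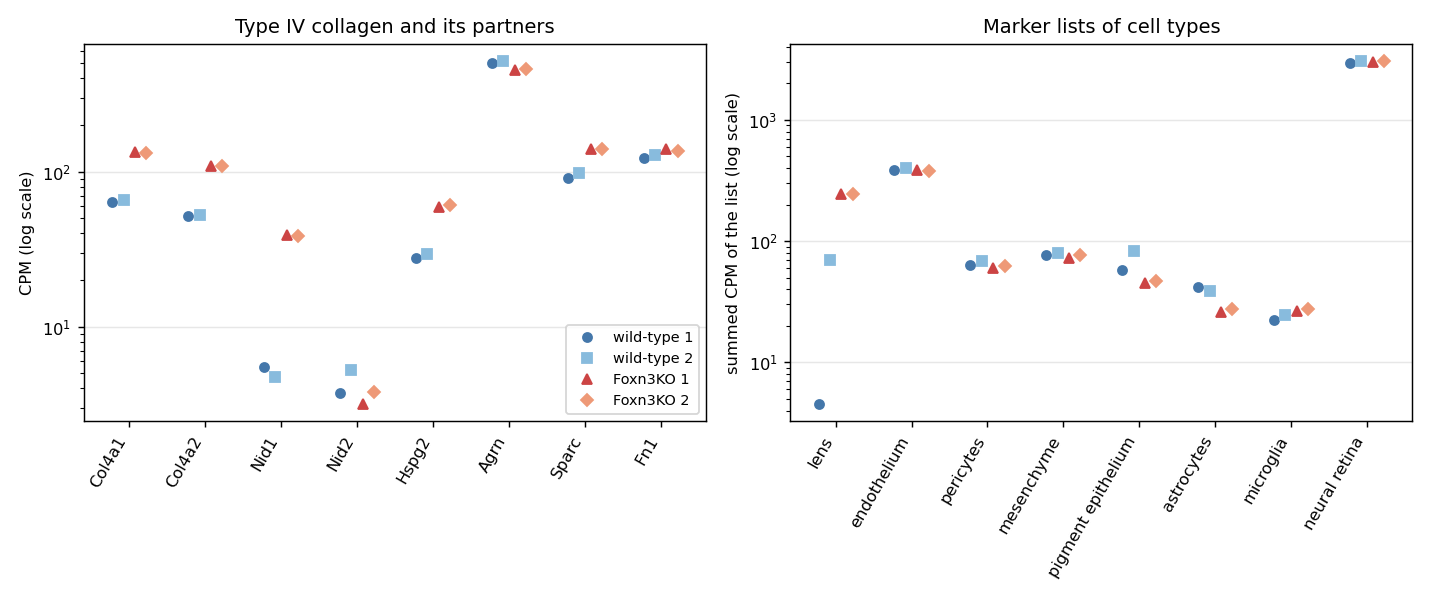
Left, CPM on a log axis of Col4a1, Col4a2 and other basement membrane genes in each library; right, summed CPM of marker lists for 8 cell types. Nid1 and Hspg2 are higher in both libraries labelled Foxn3KO, and the lens list runs from 4.52 CPM in wild-type replicate 1 to 245 CPM in Foxn3KO replicate 2.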

How the data were processed

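RNA was measured in E19 retinas of individual embryos, 2 per group; per the labels, the kit kept strand and the adaptors carried molecular identifiers. The authors deposited raw read counts per gene, FPKM values per library, a mean signal, log2 fold changes, and p-values with adjusted p-values in a single table. Per the submitters' processing notes, DESeq2 and mm39 were used; the aligner, the counter, the annotation, the use of strand and the handling of molecular identifiers are not given in the sources used here. Without a stated use of strand, reads of overlapping genes cannot be told apart. The deposited mean signal matched scaled mean counts (median-of-ratios factors). Deposited FPKM values were used for levels between genes, and the authors' p-values only where the authors' deposited table is named.

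From the counts, 18471 genes were read after a repeated identifier was dropped, and 17300 passed filterByExpr (10 counts at the median library size, in 2 libraries). After TMM scaling, the quasi-likelihood F test of edgeR 4.0.16 (R 4.3.3) was run two-sided with genotype alone, with Benjamini-Hochberg adjustment over all of them and a threshold of 0.05. Intervals are at 95%. Alternatives were RLE and total count scaling, no filter, at least 10 counts in every library, the earlier edgeR fit, DESeq2 1.42.0, limma-voom (limma 3.58.1), the replicate number as a block, and leaving out each library, where the lone sample is assumed to vary like the other group. Since wild-type replicate 1 is the only library with its sex-linked pattern, a term for that pattern would be set by that library alone, and no such fit was run. Leaving the library out also renewed the filter and the scaling, with 17842 genes tested. In simulated data on 17300 genes for this comparison, 84% of 100 genes with a log2 change of 1 and 75% of 100 with 0.5 were called, and 7 unchanged genes.

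Between replicates the mean chi-square per gene was 9.94 (wild-type) and 1.88 (Foxn3KO), above sampling noise, so each library counted as a replicate. The wild-type mean includes Xist, with 83073 counts in replicate 1 and 17 in replicate 2, so it does not describe the spread of most genes. Depth limits cover counting error only, since removal of duplicate reads is not stated. The members, classes, lists and ratios were chosen with earlier results of these data known. Values were named for every member past the threshold, Col8a1, all tested type IV and laminin chains, the 3 most abundant fibrillar collagens, the 3 called genes with the smallest p per partner list, and the 3 most abundant markers per list, of which those that bear on the members are printed; the result of 1 gene under this rule is not reported here, though it counts in the totals; other genes named were chosen after their values were seen, and were recomputed under the same alternatives where the text gives their test. Promoter windows are RefSeq sequences of GRCm38.p6, and the deposited table holds no coordinates. Figures used matplotlib 3.10.9.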

Additional observations from a re-analysis of the deposited data

How the results depend on the processing

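The count of members called stayed within 1.5 times of 18 in every alternative, from 12 (DESeq2) to 20 (without wild-type replicate 2). Over all genes it was 3795, against 2437 under DESeq2 and 2323 to 5067 when a library was left out. Basement membrane members called ranged from 5 to 9 (8 with all libraries) and partner genes from 14 to 29 (23 with all libraries) when a library was left out. Fibrillar collagens called numbered 3, and 1 under DESeq2; the cause was not tested. Each fit that leaves out a library rests on 3 samples.

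Among the genes recomputed under each alternative, signs changed for 7, none of them called in the setting concerned. On leaving out a library, log2 fold changes ran from -0.13 to 0.050 for Col9a3, -0.26 to 0.13 for Col1a2 (0.046 without Foxn3KO replicate 2), -0.16 to 0.58 for Col15a1, -0.045 to 0.77 for Col25a1 and -0.10 to 0.78 for Cdh5. Lama2 ranged from -0.16 to 0.12 on the log2 scale when a library was left out (0.057 without Foxn3KO replicate 1). Col11a2 ranged from -0.052 to 0.054 (0.0096 without Foxn3KO replicate 2); it was 0.00073 under RLE, 3.64e-07 without the filter, 0.0022 with at least 10 counts in every library, 0.00044 under DESeq2 and 0.0022 under limma-voom.

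Whether equal replicate numbers mark paired embryos is not known. The correlation of replicate differences between the groups was -0.0106. It cannot exclude pairing, since the wild-type-labelled libraries also differed in sex-linked and lens transcripts. With the replicate block, 4222 genes, 19 members, 9 basement membrane members, 3 fibrillar collagens and 26 partner genes were called. The median of the laminin chains ranged from -0.12 to 0.093 when a library was left out, and that of the type IV chains from 0.57 to 0.64. Depth limits members near 10 counts per library, such as Col6a3 and Col3a1.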

Other observations

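In the authors' deposited table, 45 of the 51 members have an adjusted p and 12 are under 0.05, 6 higher and 6 lower. All 12 are among the 18 called here by edgeR. The deposited adjusted p-values of Col4a4, Col24a1 and Col8a1 equal those of the DESeq2 alternative on the same counts. The 12 are therefore not a separate result. That DESeq2 fit called 16.0% of all genes with an adjusted p. The authors' deposited table gives Col4a1 an adjusted p of 1.20e-53 and Col8a1 one of 1.51e-10, and holds none for Col6a3.

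The threshold was missed by 4 members whose own 95% intervals left out 0. Col16a1, a fibril-associated collagen of connective tissue, had 68 and 95 counts in the wild-type-labelled libraries and 129 and 97 in the Foxn3KO-labelled ones (log2 fold change 0.49, edgeR adjusted p = 0.0776). Col11a1, the partner of Col11a2, had 332 and 375 counts against 318 and 268 (log2 fold change -0.25, edgeR adjusted p = 0.0949). The others were Col18a1 and Col3a1, and Col3a1 passed the low-count filter only through the libraries in which it was higher.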
